A study of Homo sapiens with 6 samples.

Results

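The DPPA genes (developmental pluripotency associated) carry 1 family name but come from unrelated gene families, and 5 rows of the deposited count table were followed here: DPPA2, DPPA3, DPPA4, DPPA5 and the DPPA3 pseudogene DPPA3P2. They were chosen by name among 48183 gene names, and each had 1 Ensembl identifier. All 5 passed the filter on low counts that left 26497 genes to test. Bulk RNA-seq had been made from 6 libraries of a human embryonic stem cell line carrying EOS. EOS is a GFP reporter that the study used as a marker of the naive state. The 4 naive libraries were 1 of cells induced with valproic acid (VPA, a histone deacetylase inhibitor), 1 of cells induced with CA-p38 (a constitutively active p38 kinase switched on by doxycycline) and 2 of cells induced with AICAR, an activator of the kinase AMPK. The AICAR and CA-p38 inducers were given in PXGL medium and VPA in a medium with fewer inhibitors, and the labels say that converted cells were cultured again in PXGL and sorted for CD75 and SUSD2. They describe naive culture on mouse feeder cells, but the study also kept some naive cells without feeders, and the feeder state of each library is not given in the sources used here. The 2 primed libraries were untreated cells of the parental EOS line and of the CA-p38 EOS line, grown on Matrigel in StemFit and not sorted, so that culture conditions and sorting cannot be told apart from the state. The CA-p38 libraries carry the p38 transgene in both states. The labels call the line H1 and the methods H9, and all 6 libraries come from that 1 source.

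DPPA2 and DPPA4 are nuclear proteins with a SAP domain, which bind DNA, are encoded by neighboring genes, and in mouse cells act together upstream of the genes switched on at zygotic genome activation. DPPA3, also called Stella or PGC7, is a small protein of the oocyte, the early embryo and germ cells that restrains maintenance DNA methylation through UHRF1. DPPA5 is a KH-domain protein of pluripotent and germ cells whose relatives lie beside it. In mouse, DPPA3 is a familiar mark of the naive state.

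DPPA2 (ENSG00000163530, chromosome 3, 109293788 to 109316517, minus strand) and DPPA4 (ENSG00000121570, chromosome 3, 109326144 to 109337546, minus strand) lay 9.626 kb apart on GRCh38. DPPA3 (ENSG00000187569) lay at 7711433 to 7717559 on the plus strand of chromosome 12, and DPPA5 (ENSG00000203909) at 73353063 to 73354276 on the minus strand of chromosome 6. The pseudogene DPPA3P2 (ENSG00000188831) lay at 36371412 to 36371889 on the plus strand of chromosome 14, annotated by GENCODE as a transcribed unprocessed pseudogene with 1 exon. Its 478 bases aligned without a gap to bases 137 to 614 of the 1100-base DPPA3 transcript, across all 4 exons, and 471 of them (98.5%) were identical. The aligned part held 476 of the 477 coding bases before the stop codon and no intron of DPPA3, although DPPA3P2 is annotated as unprocessed. The 7 differences were T170A, C308T, A336G, A339G, T400C, C450G and G587A, with the DPPA3 base first and positions counted from 1 at the start of the DPPA3 transcript. The 163 bases that hold 5 of the 7 differences are shown because they are what separates a pseudogene read from a DPPA3 read, with the differing bases in capitals. The DPPA3 stretch lies in exon 2 at chr12:7715260-7715422, and the DPPA3P2 stretch at chr14:36371573-36371735, both on GRCh38 and the plus strand.

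DPPA3: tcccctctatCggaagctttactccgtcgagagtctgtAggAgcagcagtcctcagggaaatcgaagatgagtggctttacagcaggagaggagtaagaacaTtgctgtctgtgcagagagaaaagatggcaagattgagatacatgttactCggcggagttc

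DPPA3P2: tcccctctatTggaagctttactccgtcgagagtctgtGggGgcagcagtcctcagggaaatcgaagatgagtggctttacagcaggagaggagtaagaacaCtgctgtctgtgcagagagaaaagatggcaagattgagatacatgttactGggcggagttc

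Between these differences the 2 genes cannot be separated by sequence. Of all 50-base windows of DPPA3P2, 43.4% (186 of 429) occurred exactly in DPPA3, of 75-base windows 30.9%, of 100-base windows 19.8% and of 150-base windows 0%. Counts of DPPA3P2 are therefore uncertain wherever a read fell in a shared window. For DPPA3 the shared windows were a smaller part, 17.7% at 50 bases and 7.49% at 100 bases.

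DPPA4 was the only DPPA gene of the 5 with a high level in primed cells. In the plot of all members by library, the 2 primed libraries stood at 676 (EOS) and 744 (CA-p38) TMM-scaled CPM, the unit of all CPM values here, in which counts are divided by the scaled library size. DPPA4 was at 429 in VPA, 473 in CA-p38, 428 in AICAR 1 and 406 in AICAR 2. The groups did not overlap, and the naive libraries were the lower ones. The fitted change was -0.71 ± 0.09 (log2, standard error, 4 naive against 2 primed), a 1.64-fold lower level in naive cells with an edgeR adjusted p of 2.97e-05.

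**Figure D1:**
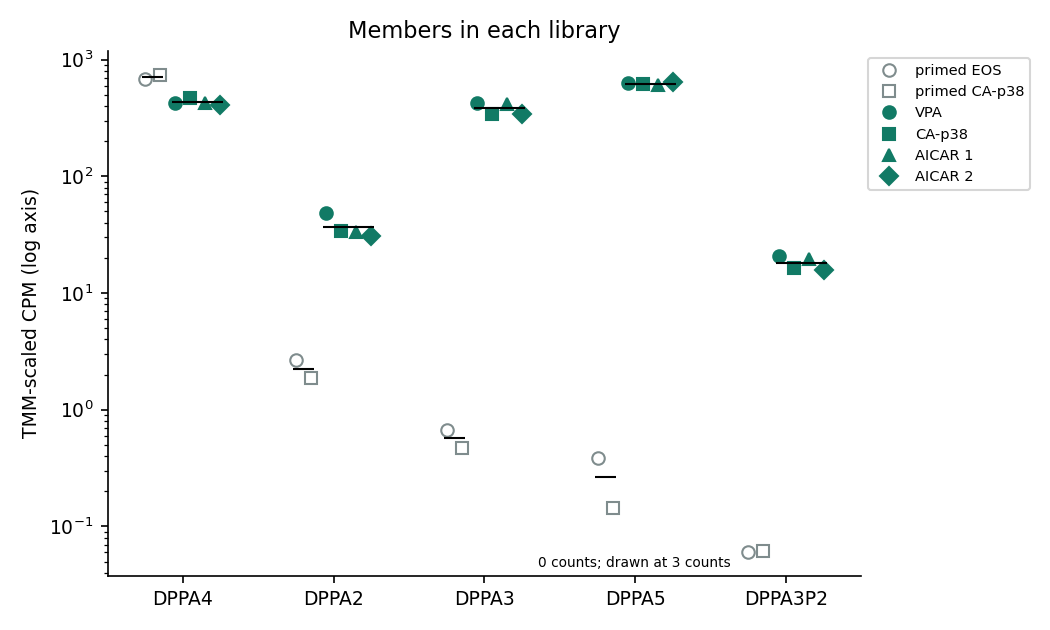
TMM-scaled CPM on a log axis for each member in the 6 libraries. Open gray marks are primed and filled green marks naive libraries, short black lines are group means, and the 2 primed libraries of DPPA3P2, which had 0 counts, are drawn at the level of 3 counts (0.0606 and 0.0613 CPM); DPPA4 is the one member whose primed marks lie above its naive marks.

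Its neighbor DPPA2 moved the other way. Primed EOS had 2.65 CPM of DPPA2 (131 counts) and the primed CA-p38 line 1.86 CPM (91 counts). It was at 48.1 CPM in VPA, 34.1 in CA-p38, 33.4 in AICAR 1 and 31.1 in AICAR 2, with VPA the highest of the 4 by 1.55 times over the lowest. No naive library overlapped a primed one, and the fitted change was 4.02 ± 0.25 (log2), or 16.3-fold, with an edgeR adjusted p of 2.67e-08. The 2 genes of the pair thus changed in opposite directions between the same libraries.

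DPPA3 went from a trace to a high level. Primed EOS held 33 counts of DPPA3 (0.667 CPM, exact Poisson 95% interval 0.459 to 0.937) and primed CA-p38 held 23 (0.470 CPM, 0.298 to 0.706), where the intervals cover counting error only. The naive levels were 427 CPM in VPA, 342 in CA-p38, 415 in AICAR 1 and 344 in AICAR 2, and the naive mean was 382 ± 45.3 CPM (SD, n = 4). VPA and AICAR 1 lay close together and above CA-p38 and AICAR 2, so the 2 AICAR libraries did not share a level. The fitted change was 9.39 ± 0.22 (log2), or 669-fold, with an edgeR adjusted p of 1.17e-11, and 84 of the 26497 genes tested had a larger one.

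DPPA5 had the largest fitted change of the 4 DPPA genes. Its primed counts were 19 for EOS (0.384 CPM, 0.231 to 0.600) and 7 for CA-p38 (0.143 CPM, 0.0575 to 0.295). It was at 625 CPM in VPA, 617 in CA-p38, 604 in AICAR 1 and 640 in AICAR 2. These 4 values spanned 1.06 times from lowest to highest, the narrowest range of the 5 members, with a coefficient of variation of 2.41% against 6.50% for DPPA4, 11.9% for DPPA3 and 21.1% for DPPA2. The fitted change was 11.19 ± 0.23 (log2), or 2331-fold, with an edgeR adjusted p of 9.23e-12, and 19 genes had a larger one. This size rests on the few primed counts: it was 12.05 without primed EOS and 10.66 without primed CA-p38.

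The pseudogene was not detected in primed cells. DPPA3P2 had 0 counts in each primed library, which allows up to 0.0606 CPM (EOS) and 0.0613 CPM (CA-p38) at 3 counts per library. It had 1084 counts in VPA, 820 in CA-p38, 1055 in AICAR 1 and 778 in AICAR 2, which are 20.7, 16.2, 19.4 and 15.7 CPM. The naive mean of 18.0 ± 2.45 CPM (SD, n = 4) was at least 295-fold higher than that limit. The edgeR adjusted p was 2.23e-09, but DPPA3P2 passed the filter on its naive counts alone, so it could only be called higher.

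Of the 5 members, 4 were called higher and 1 lower in naive cells. Among the 4, DPPA3P2 could only be called higher, since it had 0 counts in each primed library. Over all genes tested, 26% were called higher and 27% lower, 53.1% in all, so a call in itself does not set a member apart. All 5 members had no overlap between the groups, against 64.9% of genes tested (32.9% higher and 32.1% lower in naive). The sizes differed more than the calls, since the median change of all genes was 0.11 (log2) and DPPA2, DPPA3 and DPPA5 exceeded 96.4%, 99.7% and 99.9% of genes. DPPA4, at -0.71, exceeded 25.1%.

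**Figure D2:**
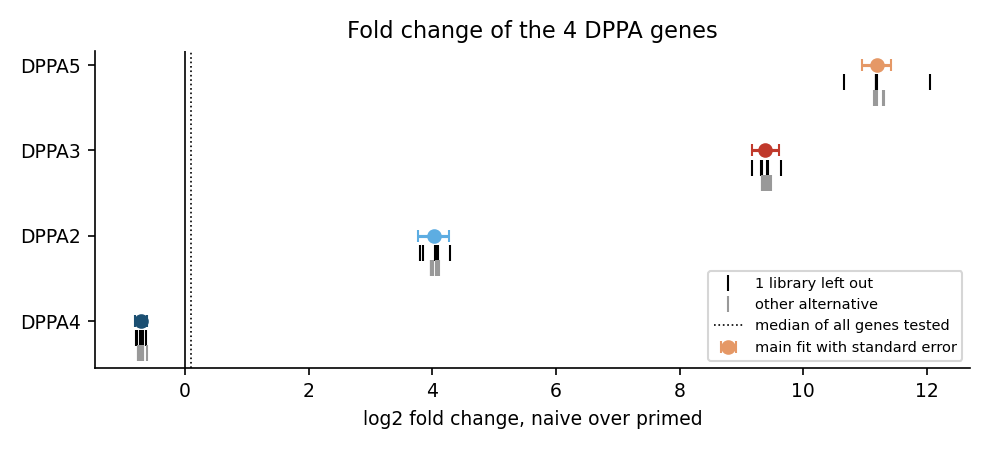
Fitted log2 fold change of the 4 DPPA genes, naive over primed, as points with standard errors. Black ticks below each point leave out 1 library, gray ticks are the other alternatives, and the dotted line is the median of all genes tested; DPPA4 lies left of 0 at every tick and the other 3 genes right of it.

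Setting DPPA3 and DPPA5 each over DPPA2 and DPPA4 gives 4 ratios that need no scaling between libraries, because both counts of a ratio come from 1 library. The log2 ratio of DPPA3 to DPPA4 was -9.98 (EOS) and -10.63 (CA-p38) in the primed libraries, and between -0.47 and -0.01 in the naive libraries. DPPA5 over DPPA4 went from -10.78 and -12.34 to between 0.38 and 0.66. Against DPPA2 the shifts were smaller, since DPPA2 rose too.

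DPPA3 over DPPA2 was -1.99 and -1.98 in the primed libraries, almost the same value, and 3.15 to 3.64 in the naive ones. DPPA5 over DPPA2 was -2.79 and -3.70 in primed and 3.70 to 4.36 in naive libraries. The mean shifts from primed to naive were 5.38 for DPPA3 over DPPA2, 7.35 for DPPA5 over DPPA2, 10.12 for DPPA3 over DPPA4 and 12.08 for DPPA5 over DPPA4. All 4 ratios were higher in each of the 4 naive than in either primed library. An exact permutation test of 4 against 2 libraries has 15 arrangements and cannot go below a one-sided p of 0.0667, so no p is given for them.

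The contrast ran within the DPPA2 and DPPA4 pair as well as between the pairs. DPPA2 over DPPA4 was -8.00 and -8.64 in primed libraries and -3.79 to -3.16 in naive libraries, a mean shift of 4.74. DPPA5 over DPPA3 shifted by 1.97, from -0.80 and -1.72 to between 0.54 and 0.89, the smallest of the 6 shifts.

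**Figure D3:**
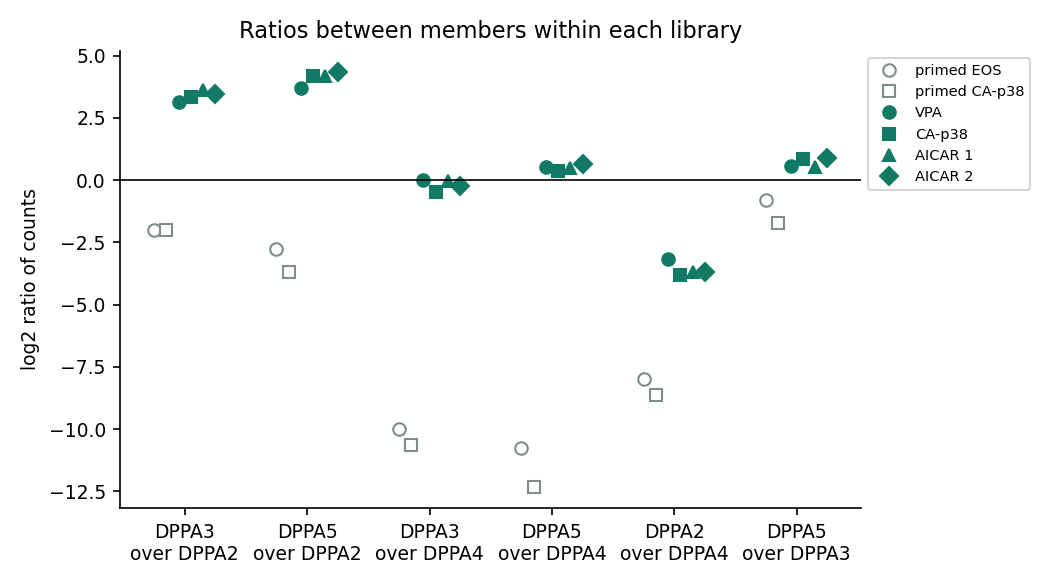
Log2 ratio of counts of 2 genes within each library, for the 4 pairs across the groups and the 2 pairs within them. Open gray marks are primed and filled green marks naive libraries; for each ratio the naive marks lie above the primed marks, by the least for DPPA5 over DPPA3.

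Levels of different genes were compared per kilobase of transcript (CPM per kb, canonical transcript). In primed cells DPPA4 stood at 255 ± 17.3 CPM per kb (SD, n = 2), DPPA2 at 1.63 ± 0.40, DPPA3 at 0.52 ± 0.13 and DPPA5 at 0.40 ± 0.26. DPPA3 and DPPA5 did not differ there beyond their spread. DPPA4 made up 98.7% and 99.3% of the summed level of the 4 genes in the 2 primed libraries.

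In naive cells the order was DPPA5, DPPA3, DPPA4 and DPPA2. DPPA5 stood at 943 ± 22.7 CPM per kb (SD, n = 4), DPPA3 at 347 ± 41.2, DPPA4 at 156 ± 10.1 and DPPA2 at 26.5 ± 5.60, and no neighbors in that order overlapped in any naive library. DPPA5 made up 62.2% to 66.9% of the sum and DPPA4 at most 11.8%. DPPA4 per kb exceeded DPPA2 by 4.42 to 6.87 times in naive libraries and by 127 and 198 times in primed ones. DPPA3P2, at 37.7 ± 5.12 CPM per kb, lay above DPPA2 in each naive library, although the ranges over the libraries overlapped (32.8 to 43.3 against 22.5 to 34.8).

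Each induced library was also set against its own parental line, without a test because each parent had 1 library. CA-p38 over primed CA-p38 gave the largest fold for DPPA5, 4021 (exact binomial 95% interval 2091 to 10717), where VPA gave 1587 (1043 to 2705), AICAR 1 gave 1534 (1008 to 2615) and AICAR 2 gave 1624 (1067 to 2769) over primed EOS. The intervals overlapped, and the parental counts were 7 in primed CA-p38 and 19 in primed EOS. For DPPA3 the folds were 631 in VPA, 712 in CA-p38, 613 in AICAR 1 and 508 in AICAR 2, with overlapping intervals.

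For DPPA2 the folds over the parent were 18.1 (15.3 to 21.8) in VPA and 18.3 (14.9 to 22.9) in CA-p38, against 12.6 (10.6 to 15.2) in AICAR 1 and 11.7 (9.82 to 14.1) in AICAR 2. The VPA interval lay above those of both AICAR libraries from the same parent. For CA-p38 the interval overlapped that of AICAR 1, and its parent was the lower one, as primed EOS held 1.42 times (1.08 to 1.88) the DPPA2 level of primed CA-p38. DPPA4 was higher in the parent by 1.58 times (1.55 to 1.60) for VPA, 1.57 (1.55 to 1.60) for CA-p38, 1.58 (1.55 to 1.61) for AICAR 1 and 1.67 (1.64 to 1.70) for AICAR 2. The interval of AICAR 2 lay above the other 3 after TMM scaling, with a factor of 1.061 in AICAR 2 and 1.002 in AICAR 1. As shares of library totals the 2 AICAR libraries were close, at 20148 of 46823699 counts in AICAR 2 and 23242 of 54277064 in AICAR 1. The intervals leave out the error of scaling, so they cannot show whether DPPA4 differed between the 2 AICAR libraries. All these intervals cover counting error only, each induction by VPA or CA-p38 had 1 library, and no difference between inductions was tested.

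Pseudogene and parent gene stood in nearly the same proportion in each naive library. DPPA3P2 made up 4.62% of the summed DPPA3P2 and DPPA3 counts in VPA (exact binomial 95% interval 4.36 to 4.90), 4.53% in CA-p38 (4.23 to 4.84), 4.47% in AICAR 1 (4.21 to 4.74) and 4.35% in AICAR 2 (4.06 to 4.66). The 4 intervals overlapped although DPPA3 itself differed by 1.25 times between these libraries. In primed libraries 0 of 33 and 0 of 23 summed counts were DPPA3P2, which allows a share of up to 10.6% and 14.8%, so a change of the proportion between the states was not detectable at this depth. Whether the DPPA3P2 counts came from transcripts of the pseudogene or from DPPA3 reads in shared windows was not tested.

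A second copy, DPPA3P1 on chromosome X, was less even. It matched DPPA3 over 465 of its 469 bases with 455 identical (97.8%), and 19.5% of its 50-base windows occurred exactly in DPPA3. It had 55 counts in VPA, 8 in CA-p38, 27 in AICAR 1 and 14 in AICAR 2, and 1 and 2 in the primed libraries. Its share of the summed counts was 0.245% (0.185 to 0.319) in VPA and 0.0463% (0.0200 to 0.0911) in CA-p38, intervals that did not overlap.

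**Figure D4:**
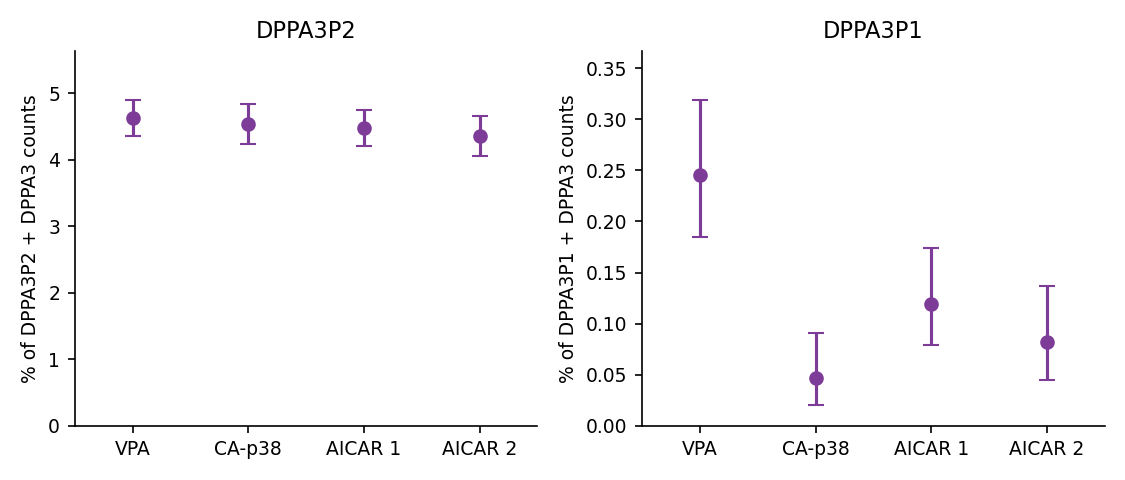
Counts of DPPA3P2 (left) and DPPA3P1 (right) as a percentage of the sum of that pseudogene and DPPA3 in each naive library. Bars are exact binomial 95% intervals of the counts and cover counting error only; the 4 intervals of DPPA3P2 overlap, and those of DPPA3P1 in VPA and CA-p38 do not.

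The table held 9 further DPPA names, all pseudogenes, of which 8 are described here. Of these, 2 passed the filter and both were called higher in naive cells, DPPA3P1 at 3.92 ± 1.06 (log2, edgeR adjusted p = 0.00749) and DPPA5P1 with 6 to 31 counts in naive and 0 in primed libraries (edgeR adjusted p = 0.00394). Both passed on their naive counts alone, with at most 2 counts in a primed library, so they could only be called higher. Of all genes tested, 26% were called higher. The other 6 had at most 11 counts in any library. The highest count of any of the 8 in a naive library was 0.580% of that of its parent gene, for DPPA2P2 in CA-p38.

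The genes around each member were counted from lists by chromosome band. For comparison, 26% of all genes tested were called higher and 27% lower. Beside DPPA3 in 12p13, 13 of 16 listed genes were tested, 8 were higher and 3 lower in naive cells, and their median change was 1.25 (log2) against 0.11 for all genes. GDF3, a TGF-beta family ligand 15.658 kb away, went from 9.69 ± 2.47 CPM in primed to 207 ± 12.9 in naive cells (4.42 ± 0.17, edgeR adjusted p = 4.09e-10). NANOG, the core pluripotency factor 70.235 kb away, went from 91.4 ± 9.34 to 230 ± 8.71 CPM (1.33 ± 0.11). NANOGNB had the highest change of the list, 4.55 ± 0.55, at 1.49 CPM in naive cells. SLC2A3, the glucose transporter GLUT3 at 201.671 kb, had the lowest, -2.26 ± 0.09. None of the 13 reached the 9.39 of DPPA3. NANOG with NANOGP1, and SLC2A3 with SLC2A14, are close copies, and counts may be split between them.

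Around DPPA5 the directions were more even, though not the sizes. All 9 listed genes of 6q13 and KH relatives were tested, with 8 higher, 1 lower and a median of 4.14. The shares over all genes tested were 26% higher and 27% lower. Changes of the 9 ran from -1.17 to 11.15, and 8 of them were called with the DESeq2 test. KHDC3L, a KH-domain protein of the maternal subcortical complex 8.382 kb away, went from 0.121 CPM (12 counts over both primed libraries) to 183 ± 31.1 CPM (10.52 ± 0.43, edgeR adjusted p = 6.60e-10). KHDC1L at 127.293 kb went from 0.162 to 376 ± 53.6 CPM (11.15 ± 0.29), a change within 1 standard error of that of DPPA5. OOEP, another member of that complex at 14.279 kb, had 2 counts over both primed libraries and 19.2 ± 3.97 CPM in naive ones. OOEP thus passed the filter on its naive counts alone and could only be called higher. CD109, the farthest at 341.509 kb, was the one lower gene (-1.17 ± 0.24).

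Near DPPA2 and DPPA4 in 3q13, 6 of the 10 listed genes in the table were tested. Of these, 2 were higher and 3 lower, with a median of -0.69, against 26% higher and 27% lower over all genes tested. Each of the 6 lay at least 598.948 kb from DPPA2, the distance of DZIP3, which fell by 1.46 ± 0.14 on the log2 scale. HHLA2, a B7 family protein, had the highest change (4.21 ± 0.40, 5.12 CPM in naive cells), MYH15 changed by 2.92 ± 0.84 at 0.862 CPM, and NECTIN3, a cell adhesion molecule, had the lowest change (-3.83 ± 0.27). MORC1, 175.654 kb from DPPA2, had 0 counts in each naive and each primed library and was not tested.

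**Figure D5:**
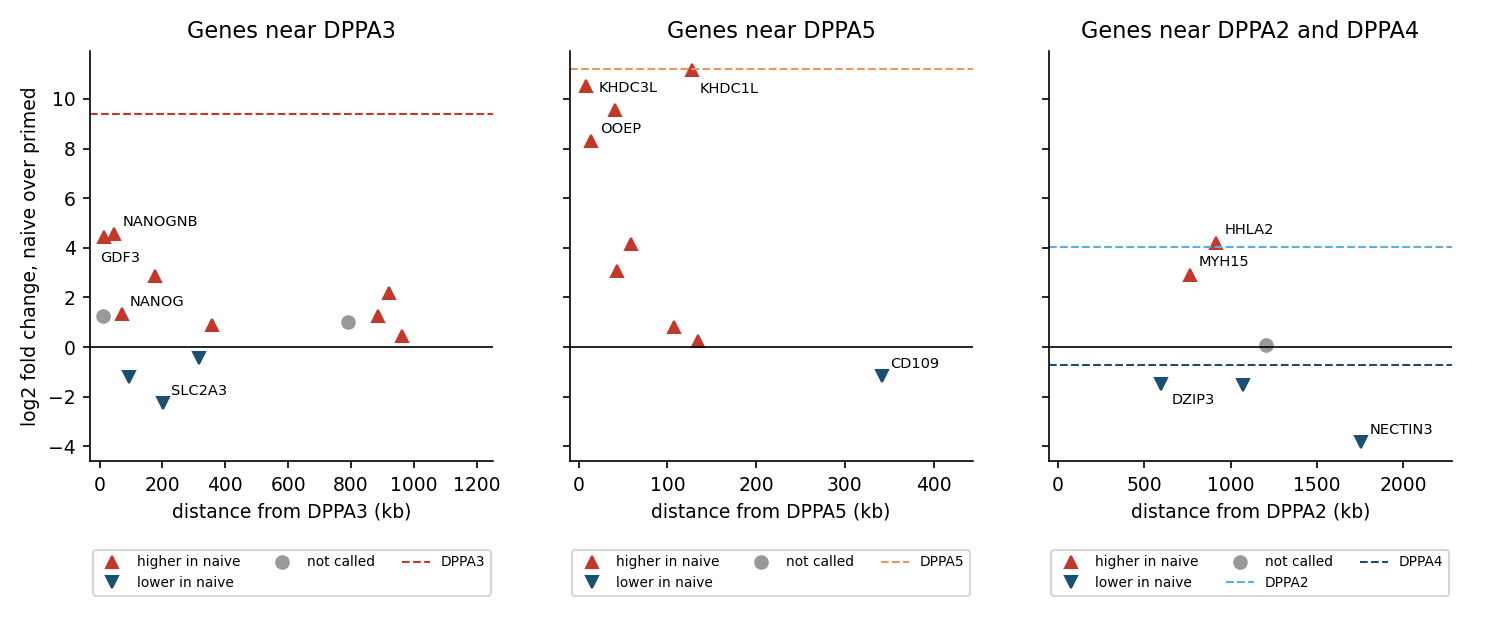
Log2 fold change, naive over primed, of the listed genes near each member against their distance in kb from DPPA3 (left), DPPA5 (middle) and DPPA2 (right). Triangles mark calls at an edgeR adjusted p under 0.05, dashed lines mark the members, and OOEP, with 2 primed counts, is drawn against 3 counts per library; of the 9 genes near DPPA5 only CD109 lies below 0.

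The 150 bases before each start show how unlike the 4 promoters are, with CpG dinucleotides in capitals. They are from RefSeq promoters on GRCh38.p14, which held 4 of the 5 members, and each is written 5′ to 3′ on the strand of its gene. DPPA2 is at chr3:109316518-109316667, DPPA4 at chr3:109337547-109337696, DPPA5 at chr6:73354277-73354426 (all minus strand) and DPPA3 at chr12:7711283-7711432 (plus strand).

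DPPA2: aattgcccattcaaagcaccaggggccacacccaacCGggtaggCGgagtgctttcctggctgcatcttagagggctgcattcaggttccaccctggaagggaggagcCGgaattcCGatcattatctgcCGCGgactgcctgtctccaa

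DPPA4: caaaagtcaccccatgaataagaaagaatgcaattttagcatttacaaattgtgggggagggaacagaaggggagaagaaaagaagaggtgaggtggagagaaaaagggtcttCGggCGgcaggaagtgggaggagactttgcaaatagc

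DPPA3: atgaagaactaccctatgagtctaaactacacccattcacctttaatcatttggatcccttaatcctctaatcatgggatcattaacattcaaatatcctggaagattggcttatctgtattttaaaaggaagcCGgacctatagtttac

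DPPA5: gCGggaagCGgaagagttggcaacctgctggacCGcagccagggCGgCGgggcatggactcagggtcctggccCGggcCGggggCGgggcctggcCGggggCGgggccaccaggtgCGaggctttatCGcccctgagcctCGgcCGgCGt

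Over the 250 bases before the start, DPPA5 had 19 CpGs and 68.8% G and C, DPPA2 had 7 and 52.0%, DPPA4 had 3 and 43.2%, and DPPA3 had 2 and 35.6%. The median of 35116 promoters of that length was 11 CpGs and 58.0%. DPPA3 and DPPA5, with the largest changes of these 4 genes, thus stood at opposite ends of the 4. DPPA3 lay above 14.7% of promoters in CpG count and 6.19% in G and C content, and DPPA5 above 65.4% and 76.6%. DPPA2 and DPPA4 lay between them. DNA methylation was not analysed here.

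Searched on both strands of the 250 bases, the octamer ATGCAAAT of POU factors and TATAAA were found in none of the 4 promoters, and occurred in 1.63% and 10.7% of all promoters. The letters GGGNGTGG of the KLF type were found once, in DPPA2, and in 15.7% of all. The letters GCCNNNGGC of the TFAP2 type were found at 2 places in DPPA5 and in 19.8% of all. These are matches of letters only.

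By their profiles over the 6 libraries (Euclidean distance between log2 of CPM plus 0.5, each gene centered, among genes averaging 1 CPM or more), the genes most like DPPA2 were ATP12A (distance 0.166), TEC (0.190) and RHOV (0.288). Those most like DPPA3 were ECEL1P1 (0.627), KHDC3L (0.646) and FGF4 (0.680), and those most like DPPA5 were DNMT3L (0.694), KHDC1L (0.746) and ALPP (1.08). The 3 nearest to DPPA4 were PXN-AS1 (0.0619), RBM26 (0.0639) and NSMCE4A (0.0728). DPPA3 and DPPA5 lay 1.44 from each other, DPPA2 lay 5.19 from DPPA4 and 5.48 from DPPA3, and DPPA4 lay 10.6 from DPPA3. The nearest to DPPA3P2 were SERPINB9 (0.198), EFHD1 (0.214) and PBX4 (0.281), a likeness that depends on the added 0.5 CPM since its primed counts were 0. Each profile holds 6 points in 2 groups, so the distances mostly follow the size of the change.

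Genes tied to the members by what the proteins do were counted from 4 further lists. As above, 26% of all genes tested were called higher and 27% lower. Of 13 genes of DNA methylation, on which DPPA3 acts, 4 were higher and 7 lower, with a median of -0.34. DNMT3L, a cofactor of the de novo methyltransferases, had the highest change (10.97 ± 0.30, from 0.649 to 1312 CPM) and DNMT3B, one of those enzymes, the lowest (-1.95 ± 0.11, from 2899 ± 465 to 750 ± 63.6 CPM). UHRF1, the partner of DPPA3 and named here after its values were seen, was at 106 ± 18.2 CPM in primed and 95.7 ± 5.48 in naive cells, and its change of -0.15 ± 0.12 did not pass the test (edgeR adjusted p = 0.321).

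Of the genes of zygotic activation, 14 of 15 were in the table. All 14 were called higher in naive cells, against 26% of all genes tested. With limma-voom 10 of the 14 were called, and 11 without primed EOS and 12 without primed CA-p38. Of the 14, 11 had at most 3 counts in each primed library. These 11 passed the filter on their naive counts alone, so they could only be called higher. With those set against 3 counts the median change was 4.71, and KHDC1L again led those with primed counts. TRIM43, with 0 counts in both primed libraries and 7.85 ± 5.46 CPM in naive cells, was at least 129-fold higher, though its reads may be shared with copies such as TRIM43B. ARGFX, a homeobox gene, had the lowest fitted change, 3.0 ± 0.35, at 6.21 CPM in naive cells. Set against 3 counts, PRAMEF1 (2.34), DUXA (2.45) and DUXB (2.88), named after their values were seen, lay lower.

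Of 13 genes of chromatin complexes, 4 were higher and 7 lower, with a median of -0.34, against 26% and 27% called over all genes tested. ASH2L, a subunit of the H3K4 methyltransferase complexes, had the highest change (2.44 ± 0.10, from 52.7 to 286 CPM) and KMT2A, a catalytic subunit of such complexes, the lowest (-1.55 ± 0.14). Of 13 germ cell genes 12 were tested, 9 higher and 3 lower. Their median was 4.42 and, with genes near 0 set against 3 counts, 3.32. The 2 genes so set could only be called toward the state that carried them through the filter. SYCP3, a protein of the synaptonemal complex, was the highest at 8.51 ± 0.39, and DAZL, an RNA-binding protein of germ cells, the lowest, with 1.92 ± 1.48 CPM in primed libraries and 2 counts over the 4 naive ones.

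Total counts ran from 46823699 to 54277064 per library. The labels were checked against markers, and all 8 naive markers (DPPA5 among them) were higher in naive libraries, with a sum of 5074 to 5974 CPM against 8.12 and 11.8 CPM, and 6 of 7 primed markers were lower. SUSD2 is also among the 8, and since the naive cells were sorted for it, its rise is no independent check. Shares called over all genes tested were 26% higher and 27% lower. Of 10 fibroblast markers 9 were tested, 5 were lower in naive cells and none higher, and their sum was 49.1 to 87.3 CPM in naive and 284 and 289 CPM in primed libraries. Sums of trophectoderm markers were 22.2 to 25.6 CPM in naive and 7.05 CPM in each primed library. Sums of hypoblast markers were 36.1 to 45.2 CPM in naive and 154 and 183 CPM in primed libraries, and sums of neural markers 255 to 299 and 547 and 646 CPM. Most of the primed sums was COL4A1 (145 and 150 CPM) and NES (427 and 507 CPM). Of 7 hypoblast markers 5 were lower and 1 higher, GATA4 (0.470 CPM in primed, 10.7 in naive cells). Of 6 neural markers 2 were lower and 2 higher, ZIC1 and TUBB3. These 5 genes were named after their values were seen. The part of such cells in the DPPA values was not tested, and in bulk RNA fewer cells with a transcript and less of it per cell cannot be told apart.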

How the data were processed

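The authors deposited whole-number counts per Ensembl gene identifier, without normalization. Adapters had been trimmed with cutadapt 1.15 through Trim Galore 0.4.4, and reads mapped with Bowtie2 to Ensembl GRCh38 cDNA and noncoding RNA sequences, keeping those mapped with quality 1 or more. Whether counting used strand is not given in the sources used here, and 23 columns of other studies were not used.

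Identifiers sharing a name were summed, and 26 rows with ERCC spike-in identifiers and no gene name, with at most 1 count in a library (1.93e-06% of counts), were left out. The test of naive (4 libraries) against primed cells (2) was that of edgeR 4.0.16 under R 4.3.3 (quasi-likelihood, TMM scaling, filterByExpr by state, no covariates), adjusted by Benjamini-Hochberg over 26497 genes with a threshold of 0.05. The common dispersion was 0.0563. The script was tested on simulated data. Nothing states that the libraries are separate cultures, so p-values measure the spread between these libraries. That spread takes in any differences between inducers and between lines, and the rest may be technical. The study lists its AICAR cells at consecutive passages and does not say whether they came from 1 conversion. The AICAR libraries differed from each other about as much as other naive pairs (chi-square per gene 26.8 against 25.4 to 47.0).

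Folds over a parent used a prior count of 0.5 and exact Clopper-Pearson 95% intervals, and the floor was 3 counts per library. Positions and transcripts came from GENCODE 44 on GRCh38. Pairwise alignments other than that of DPPA3P2, which was placed without gaps, used Biopython 1.88.

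Named genes were every member, the 3 nearest profiles of each and, per list, the called genes with the highest and lowest change or nearest to a member in its band, at most 4. Members and lists were chosen with earlier results of these data known. Alternatives covered DESeq2 1.42.0, limma-voom (limma 3.58.1), scaling, filters, the parental line as a block, summed AICAR libraries, identifiers kept apart, DPPA3 summed with DPPA3P2, and each library left out.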

Additional observations from a re-analysis of the deposited data

How the results depend on the processing

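The direction and the call of each member were the same under every alternative that could test it. The log2 change ran from 3.80 to 4.29 for DPPA2, 9.16 to 9.65 for DPPA3 (9.45 summed with DPPA3P2), -0.79 to -0.61 for DPPA4 and 10.66 to 12.05 for DPPA5, and the highest adjusted p over the alternatives was 0.000717, for DPPA4. With at least 10 counts required in every library, DPPA5 and DPPA3P2 were not tested, so 3 of 3 tested members were called, with 5 of 5 genes around DPPA5, 3 of 4 around DPPA2 and 1 of 1 of zygotic activation. The median log2 fold of DPPA4 over the parental library, -0.66, was -0.61 with library totals as scaling and -0.73 against the mean of both primed libraries. That of DPPA3P2 was 8.77 with a prior count of 2, against 10.77 with 0.5, since its parents had 0 counts. On the longest transcript the naive level of DPPA4 was 143 CPM per kb. The number of genes called was 11311 to 13677 with 1 library left out and 14058 with all. Replicate numbers were given in accession order and pair nothing. No paired analysis was possible because the labels give no numbers shared by the groups, and with the parental line as a block instead the members' calls were the same. Depth limits DPPA3, DPPA5 and DPPA3P2 in primed cells, which rest on 0 to 33 counts.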
